A study of Mus musculus with 15 samples.

Results

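Granule cell progenitor genes are 10 genes taken by name for a link to the precursors of cerebellar granule cells or to the signals that act on them: Atoh1, Mycn, Ccnd1, Ccnd2, Nhlh1, Barhl1, Sfrp1, Mfap4, Gli1 and Gli2. They were chosen with earlier results of these data known, so their counts describe them and do not test them as a set. All 10 had a probe set with a single gene symbol, and each had only 1 such probe set, so 10 of the 19500 genes on the array are described here. The RNA came from cerebella of mice with the Tg(Pcp2-L10a-Egfp) transgene, in which the promoter of Pcp2, a gene of Purkinje cells, drives a tagged ribosomal protein. Ribosomes with the tag were pulled from pooled, homogenised cerebella with antibodies against GFP, and the RNA on them was hybridised to 15 arrays, 3 each at P0, P7, P15, P21 and P56 (days after birth). All animals carried the transgene, and no other treatment or genotype is given in the labels. Unpurified cerebellar RNA was not used here, so no value is an enrichment over the tissue.

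Granule cell precursors arise at the rhombic lip under the transcription factor Atoh1 and spread over the surface of the cerebellum as the external granular layer. Purkinje cells lie beneath that layer and secrete Sonic hedgehog, which binds Ptch1, releases Smo and acts through the Gli transcription factors to keep the precursors dividing, with Mycn and the D-type cyclins among the downstream genes. In the mouse, this division is most intense around the end of the first postnatal week, and the layer is gone by about weaning, when its cells have migrated inward past the Purkinje cells and matured.

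The purification was directed at Purkinje cells, whose markers were much brighter from P7 on than at P0. The mean log2 signal of 17 Purkinje cell genes lay between 9.68 and 9.72 in the P0 arrays and between 12.50 and 12.77 in those of all later ages. Only Ppp1r17 at P0 lay below the lower quartile of its arrays, a level (5.86 to 6.01) under which a signal is not shown to be above background. Genes of other cells gave signal as well. At P0, the lists of astrocytes and Bergmann glia (10.47 to 10.52) and of interneurons (10.11 to 10.14) lay above the Purkinje cell list. Those of mature granule cells, oligodendrocyte lineage, endothelial and mural cells, microglia and meningeal fibroblasts lay below it. No value here tells which cells an RNA came from. In such RNA, fewer cells of a type and less RNA per cell cannot be told apart, nor can either be told apart from a change in how much RNA of other cells was carried along. No batch is given for an array. The labels do not state whether arrays of the same age represent separate pools of animals, and the p-values may therefore reflect technical spread alone.

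All 10 genes differed between ages (limma moderated F-test, adjusted p 3.40e-15 for Ccnd2 to 8.24e-06 for Gli1), as did 81.6% of the 22092 probe sets. Most of them dropped between P7 and P15: 8 were called lower, and Sfrp1 (−0.39) and Gli1 (−0.13) were not called. Averaged after centring each gene on its own mean, the 10 genes stood between 0.74 and 0.78 in the P0 arrays and between 0.85 and 0.92 in those of P7, then between −0.30 and −0.17 at P15, between −0.71 and −0.55 at P21 and between −0.79 and −0.74 at P56. The course up to P7 divided them. Atoh1, Mycn, Ccnd2, Nhlh1 and Gli2 had their highest mean at P7, and Ccnd1, Barhl1, Sfrp1, Mfap4 and Gli1 had theirs at P0. The excess of Ccnd2 at P7 was too small to separate the ages (0.02, SE 0.07) and turned negative with quantile normalization (−0.15).

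**Figure D1:**
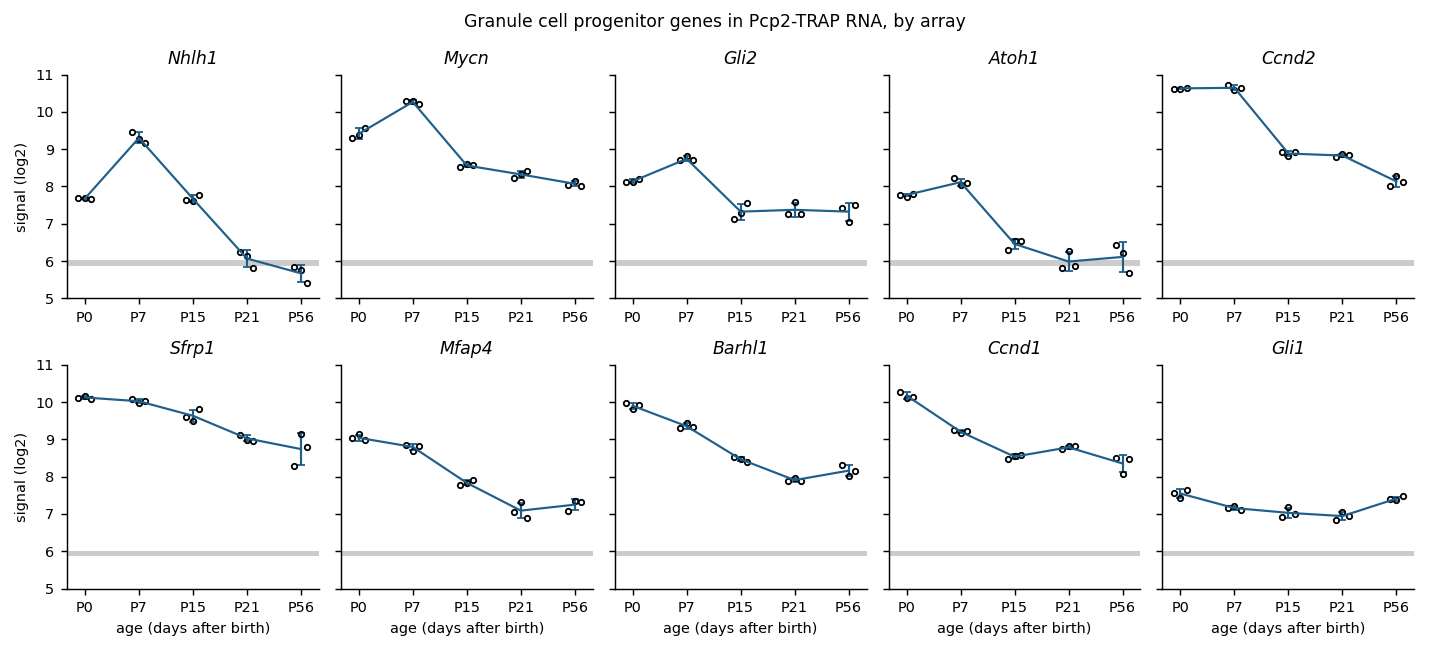
Signal (log2) of the 10 granule cell progenitor genes at each age. Circles are the 3 arrays of an age, the line joins the age means with bars of 1 SD, and the grey band is the range of the arrays' lower quartiles. Nhlh1, Mycn and Gli2 peak at P7, Atoh1 and Nhlh1 reach the grey band at P21 and P56, and Gli1 spans the narrowest range.

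The genes with their highest mean at P7 are described first. Nhlh1 encodes a basic helix-loop-helix (bHLH) factor of newborn neurons. Its signals were 7.69, 7.69 and 7.65 at P0, 9.46, 9.28 and 9.16 at P7, 7.64, 7.60 and 7.77 at P15, 6.25, 6.14 and 5.82 at P21 and 5.84, 5.76 and 5.41 at P56. The P7 arrays stood above all others, the P15 arrays were back at the P0 level, and all 3 arrays at P56 lay below their lower quartile. Nhlh1 was 3.08-fold higher at P7 than at P0 (log2 change 1.62, SE 0.12, limma adjusted p 9.74e-10), and it then fell in each of the next 2 steps, at P15 against P7 (−1.63) and at P21 against P15 (−1.60; SE 0.12 each, adjusted p 3.67e-08 and 2.75e-07). The fall from P7 to P56 was the largest among the 10 genes, 12.4-fold as measured, with a size that is uncertain because the P56 level is not shown to be above background.

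Mycn encodes the MYC family factor through which hedgehog signalling drives division of the precursors. It gave 9.29, 9.37 and 9.58 at P0, 10.30, 10.29 and 10.21 at P7, 8.52, 8.60 and 8.57 at P15, 8.23, 8.33 and 8.41 at P21 and 8.04, 8.15 and 8.02 at P56. No array at P7 overlapped one of another age, and all arrays from P15 on lay below those of P0. Mycn rose 1.81-fold from P0 to P7 (0.85, SE 0.08, limma adjusted p 2.32e-08) and then fell 3.26-fold to P15 (−1.70, SE 0.08, adjusted p 2.13e-10). The step from P15 to P21 was small (−0.24, SE 0.08, adjusted p 0.0414), and its call ended without P0 replicate 2, any array of P7 or P15, or P21 replicate 1 or 2, with values from −0.26 to −0.19, and with only the P21 and P15 arrays.

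Gli2 encodes the main activating Gli factor of hedgehog signalling. Its signals were 8.11, 8.11 and 8.20 at P0, 8.70, 8.81 and 8.70 at P7, 7.13, 7.29 and 7.55 at P15, 7.26, 7.59 and 7.27 at P21 and 7.43, 7.05 and 7.50 at P56. The gene was highest at P7 and level from P15 on, with overlapping arrays at the 3 later ages. It rose by 0.60 from P0 to P7 (SE 0.12, limma adjusted p 3.04e-04) and fell by 1.41 from P7 to P15 (SE 0.12, adjusted p 3.21e-07), and 99.98% of the P7 to P56 fall had been reached at P15.

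Atoh1, the bHLH factor that defines the precursors, gave 7.77, 7.73 and 7.81 at P0, 8.22, 8.04 and 8.08 at P7, 6.30, 6.53 and 6.54 at P15, 5.82, 6.27 and 5.87 at P21 and 6.44, 6.22 and 5.67 at P56. All P7 arrays lay above all P0 arrays, but the step of 0.34 (SE 0.15, 95% interval 0.02 to 0.66) missed the threshold with a limma adjusted p of 0.0589. It was called with quantile normalization (0.41), with array medians set to 0 (0.40), with array weights (0.32), with only the arrays of P7 and P0 in the fit, and without P21 replicate 2, P56 replicate 1 or P56 replicate 3. Atoh1 then fell 3.15-fold from P7 to P15 (−1.66, SE 0.15, adjusted p 6.47e-07). A signal below the array's lower quartile was seen in 2 arrays at P21 and 1 at P56, so the depth of the late fall is uncertain. The step from P15 to P21 (−0.47, adjusted p 0.0396) lost its call without P0 replicate 1 or 3, P7 replicate 3, P15 replicate 2 or 3, or P21 replicate 1 or 3, with values from −0.47 to −0.39.

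Ccnd2 encodes cyclin D2, which drives the G1 phase and is the D-type cyclin most tied to granule cell precursors. It was level in the first week, with 10.62, 10.62 and 10.64 at P0 and 10.72, 10.58 and 10.64 at P7, and gave 8.93, 8.81 and 8.91 at P15, 8.79, 8.87 and 8.83 at P21 and 8.0, 8.28 and 8.12 at P56. The change from P0 to P7 was 0.02 with a 95% interval of −0.14 to 0.17. From P7 to P15 it fell 3.39-fold (−1.76, SE 0.07, limma adjusted p 9.45e-11), and a further fall of 0.69 followed from P21 to P56 (SE 0.07, adjusted p 3.50e-07).

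Promoters are shown for genes with their highest mean at P7. All of that group were called lower at P15 than at P7, as were Ccnd1, Barhl1 and Mfap4 outside it. RefSeq's table (GRCm38.p6) held 5 of the 10 genes, namely Atoh1, Mycn, Nhlh1, Gli2 and, with 2 starts, Barhl1. The 250 bases before the start are given 5′ to 3′ for the first 4, on the gene's own strand, and capitals mark a motif that was searched for.
Mycn, chr12:12941837-12942086, minus strand: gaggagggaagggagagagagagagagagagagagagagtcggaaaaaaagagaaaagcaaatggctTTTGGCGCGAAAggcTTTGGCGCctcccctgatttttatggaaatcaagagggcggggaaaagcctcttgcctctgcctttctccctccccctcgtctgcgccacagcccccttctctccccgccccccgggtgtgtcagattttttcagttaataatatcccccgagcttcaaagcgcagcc
Nhlh1, chr1:172057597-172057846, minus strand: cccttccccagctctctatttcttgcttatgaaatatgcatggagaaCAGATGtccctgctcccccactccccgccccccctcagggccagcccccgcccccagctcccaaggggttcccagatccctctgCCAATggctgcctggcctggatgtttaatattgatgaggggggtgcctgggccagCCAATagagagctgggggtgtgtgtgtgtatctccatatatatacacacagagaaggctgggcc
Atoh1, chr6:64728875-64729124, plus strand: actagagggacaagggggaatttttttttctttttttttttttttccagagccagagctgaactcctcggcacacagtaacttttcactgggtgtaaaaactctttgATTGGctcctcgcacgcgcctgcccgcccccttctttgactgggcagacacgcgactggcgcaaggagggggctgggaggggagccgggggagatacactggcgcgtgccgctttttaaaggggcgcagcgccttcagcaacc
Gli2, chr1:119053620-119053869, minus strand: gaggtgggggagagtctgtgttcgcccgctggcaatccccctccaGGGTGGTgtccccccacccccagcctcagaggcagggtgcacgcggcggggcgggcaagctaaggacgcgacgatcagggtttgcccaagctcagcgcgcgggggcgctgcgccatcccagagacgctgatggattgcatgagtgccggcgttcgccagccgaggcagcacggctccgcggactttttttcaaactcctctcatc

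The search covered both strands for 8 motifs: the GLI site GACCACCCA and its core ACCACCC, which lies within it, the bHLH E-box CAGNTG, the MYC E-box CACGTG, the E2F sites TTTGGCGC and TTTCGCGC, CCAAT and TATAAA. In the Mycn promoter, TTTGGCGC began 183 and 168 bases before the start and TTTCGCGC, overlapping the first of these on the other strand, 179 bases before it. Among all 32851 promoters of the table, 0.417% held TTTGGCGC and 0.256% held TTTCGCGC in the same window. An E-box stood in the Nhlh1 promoter (CAGNTG at 203 bases) and in both Barhl1 promoters (at 99 and 15 bases), a motif found in 44.8% of all promoters. CCAAT was found in Nhlh1 and Atoh1 (33.8% of all promoters) and the core ACCACCC in Gli2 (3.92%). GACCACCCA (0.225%), CACGTG (6.02%) and TATAAA (12.4%) were in none of the 6 windows. A match describes these letters and shows no binding.

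The genes with their highest mean at P0 began with Ccnd1, which encodes cyclin D1. Its signals were 10.27, 10.11 and 10.14 at P0, 9.24, 9.16 and 9.21 at P7, 8.46, 8.56 and 8.58 at P15, 8.74, 8.81 and 8.81 at P21 and 8.51, 8.08 and 8.47 at P56. Each of the first 3 ages was clear of the next. Ccnd1 fell 1.96-fold from P0 to P7 (−0.97, SE 0.09, limma adjusted p 4.79e-08) and 1.59-fold from P7 to P15 (−0.67, SE 0.09, adjusted p 5.82e-05), and these falls were not shown to differ in size (difference 0.30, SE 0.16, adjusted p 0.138), although quantile normalization (0.53), array weights (0.32) and leaving out P56 replicate 2 called the earlier fall the larger.

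Barhl1 encodes a homeodomain factor that acts downstream of Atoh1 in granule cell survival and migration. It gave 9.97, 9.81 and 9.92 at P0, 9.30, 9.44 and 9.32 at P7, 8.52, 8.47 and 8.40 at P15, 7.89, 7.96 and 7.87 at P21 and 8.31, 8.02 and 8.15 at P56. Arrays of neighbouring ages did not overlap in any step. Barhl1 was lower in each step up to P21, by log2 changes of −0.55, −0.89 and −0.56 (SE 0.08 each, limma adjusted p 6.02e-06, 3.64e-07 and 9.15e-05) and rose by 0.25 from P21 to P56 (SE 0.08, adjusted p 0.00961). That rise lost its call without P56 replicate 1 (0.18) and with only the P56 and P21 arrays in the fit.

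Mfap4 encodes an extracellular matrix protein of the microfibrils. Its signals were 9.03, 9.13 and 8.97 at P0, 8.86, 8.69 and 8.83 at P7, 7.77, 7.82 and 7.90 at P15, 7.06, 7.31 and 6.90 at P21 and 7.08, 7.35 and 7.32 at P56. It was lower at P15 than at both earlier ages, lower again at P21, and its arrays at P21 and P56 overlapped. The changes were −0.96 at P15 against P7 and −0.74 at P21 against P15 (SE 0.10 each, limma adjusted p 2.12e-06 and 6.05e-05). The smaller fall from P0 to P7 (−0.25, adjusted p 0.0374) lost its call with array medians set to 0 (−0.19) and without P0 replicate 1 or 2 or P7 replicate 2 or 3, with values from −0.26 to −0.19.

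Sfrp1 encodes a secreted protein that binds Wnt ligands and dampens their signal. It gave 10.12, 10.17 and 10.08 at P0, 10.07, 9.97 and 10.03 at P7, 9.59, 9.50 and 9.81 at P15, 9.12, 8.99 and 8.96 at P21 and 8.28, 9.14 and 8.80 at P56. Its arrays declined gradually, with those of P56 spread more widely than those of any other age. By P15 it had covered 30.4% of the P7 to P56 fall, against 62.3 to 99.98% for 7 of the other genes and 44.9% for Nhlh1. The step called was from P15 to P21 (−0.61, SE 0.14, limma adjusted p 0.00692), whereas that from P7 to P15 (−0.39, SE 0.14, adjusted p 0.0602) missed the threshold and was called without P56 replicate 1 or 2, with array weights (−0.41), with the trended and robust prior, with the dimmest 50% of probe sets removed and with only the P15 and P7 arrays.

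Gli1 is a transcriptional target and amplifier of hedgehog signalling, and its level is widely used as a readout of that pathway. It gave 7.56, 7.43 and 7.65 at P0, 7.17, 7.21 and 7.10 at P7, 6.91, 7.18 and 7.0 at P15, 6.83, 7.04 and 6.95 at P21 and 7.39, 7.38 and 7.47 at P56. The P0 and P56 arrays were the high ones, and the middle ages were lower with arrays that overlapped between P7 and P15 and between P15 and P21. Gli1 fell by 0.39 from P0 to P7 (SE 0.08, limma adjusted p 4.19e-04) and rose by 0.47 from P21 to P56 (SE 0.08, adjusted p 1.03e-04). Over all ages its means spanned 1.52-fold, against 2.61-fold or more for each of the other 9 genes. Its change from P0 to P56 was −0.14 (95% interval −0.31 to 0.04) and turned to called rises of 0.19 with quantile normalization and 0.19 with array medians set to 0.

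Read by step, the genes moved both ways in the first week, and those called in the second all fell. At P7 against P0, 3 genes were higher (Mycn, Nhlh1 and Gli2), 4 were lower (Ccnd1, Barhl1, Mfap4 and Gli1) and 3 were not called, when 33.6% of all probe sets were higher and 28.5% lower (62.1% together). At P15 against P7, 8 of 10 were lower and 0 were higher, with Sfrp1 and Gli1 not called, when 13.6% of all probe sets were lower and 10.4% higher (24% together). The arrays of P15 lay below those of P7 without overlap for 9 of 10 genes, as for 23.2% of all probe sets. The median change of the 10 genes in that step was −1.19, beside 0.01 over all probe sets. The change between P7 and P15 was more negative than that between P0 and P7 for 7 genes, namely Atoh1, Mycn, Ccnd2, Nhlh1, Barhl1, Mfap4 and Gli2 (limma test of the difference, called lower for 27.5% of all probe sets, higher for 21.9% and 49.4% together). The difference ran from −3.25 (SE 0.20, adjusted p 6.10e-10) for Nhlh1 to −0.34 (SE 0.13, adjusted p 0.0442) for Barhl1, and the call for Barhl1 ended with quantile normalization (−0.14), array medians set to 0 (−0.33), the trended and robust prior, the replicate block and without P0 replicate 2 or 3, any array of P7, P15 replicate 2 or 3, or P21 replicate 1.

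**Figure D2:**
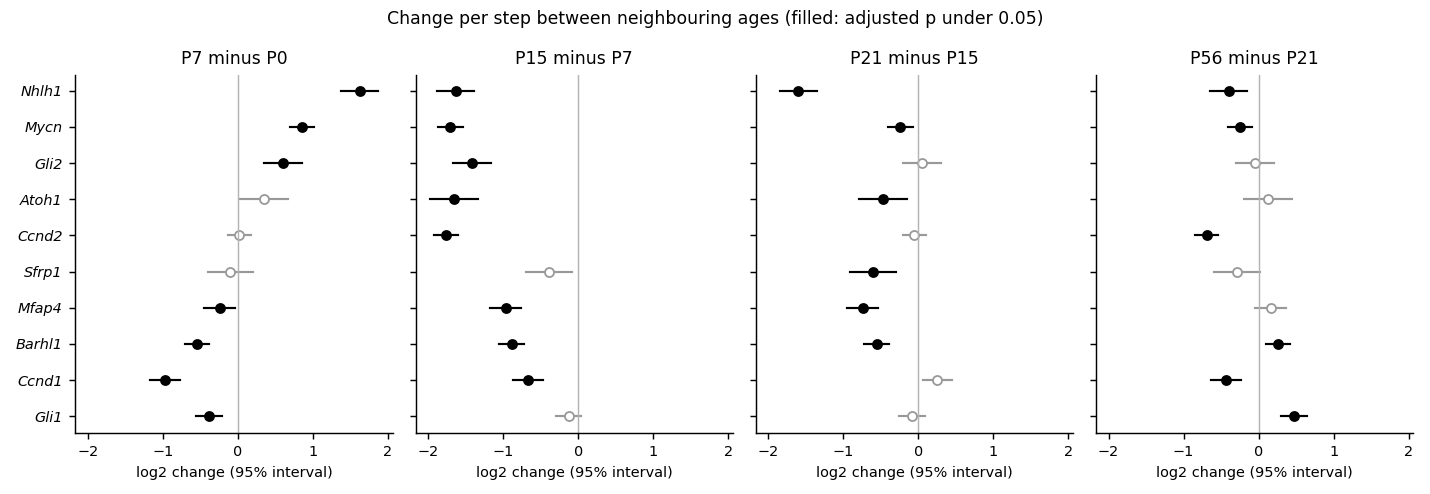
Log2 change of each granule cell progenitor gene in each step between neighbouring ages, later minus earlier, with the 95% interval of the limma fit. Filled points have an adjusted p under 0.05. In the P15 minus P7 panel all 10 points lie left of 0, whereas the P7 minus P0 panel runs from −0.97 for Ccnd1 to 1.62 for Nhlh1.

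At P21 against P15, 6 genes were lower (Atoh1, Mycn, Nhlh1, Barhl1, Sfrp1 and Mfap4) and 0 were higher, when 7.16% of all probe sets were lower and 10.5% higher (17.7% together), and the count ran from 4 to 7 called genes as arrays were left out. At P56 against P21, 4 were lower (Mycn, Ccnd1, Ccnd2 and Nhlh1) and 2 higher (Barhl1 and Gli1), when 34.3% of all probe sets were lower and 22.1% higher (56.4% together). That step depends on scaling: the mean array median was lower at P56 than at P21, and setting the medians to 0 moved all changes by 0.23, which left 1 gene lower (Ccnd2) and 4 higher. The calls of Mycn (−0.02) and Ccnd1 (−0.20) ended with medians set to 0 and with quantile normalization, and that of Nhlh1 (−0.16) with medians set to 0. Mycn also lost its call with array weights and without P21 replicate 3, and Nhlh1 without P56 replicate 3. At P56 against P7, 9 genes were lower and Gli1 was higher (0.25, SE 0.08, limma adjusted p 0.0131, a call that ended without P7 replicate 3), when 34.2% of all probe sets were lower and 25.4% higher (59.6% together). At P56 against P0, 9 were lower and Gli1 was not called, when 35.3% of all probe sets were lower and 40.1% higher (75.4% together). Of all called probe sets, 56.7% were lower at P15 than at P7 (37.8% with medians set to 0), 40.5% at P21 than at P15 (54.1%), 60.7% at P56 than at P21 (30.9%), 57.5% at P56 than at P7 (28.1%) and 46.8% at P56 than at P0 (29.8%). Setting medians to 0 moved the changes from P0 to P56 by 0.32 and those from P7 to P56 by 0.26, and the count of genes lower was again 9 in each.

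Relatives within the group differed in the direction or the size of their measured change from P0 to P7. Within each array, the difference of Ccnd1 minus Ccnd2 was −1.44 ± 0.03 at P7 and −0.45 ± 0.09 at P0 (SD, n = 3 each), a change of −0.99. For Gli1 minus Gli2 it was −1.58 ± 0.04 at P7 and −0.59 ± 0.07 at P0, a change of −0.99, and for Atoh1 minus Nhlh1 −1.19 ± 0.09 at P7 and 0.09 ± 0.06 at P0, a change of −1.28. In all 3 pairs, every P7 array lay below every P0 array. The exact two-sided permutation test gave p = 0.1 for each (0.1 after adjustment over the 3 pairs), the smallest value that 3 against 3 arrays allow. As a description over the 15 arrays, which share their ages, Pearson's r between 2 of the genes had a median of 0.82 over 45 pairs and was highest for Barhl1 with Mfap4 (0.97). With Gli1 it ran from −0.04 (Nhlh1) to 0.57 (Barhl1).

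The hedgehog pathway around Gli1 and Gli2 had members that rose and members that fell. The ligand Shh, which Purkinje cells secrete, gave 7.97, 7.72 and 7.95 at P0, 9.31, 9.31 and 9.47 at P7, 9.36, 9.33 and 9.51 at P15, 9.21, 9.28 and 9.14 at P21 and 8.97, 9.32 and 9.57 at P56. It rose by 1.48 from P0 to P7 (SE 0.12, limma adjusted p 3.93e-09) and was not called in any later step. Purkinje cell markers rose in the same step, 16 of 17, and their part in the rise of Shh was not tested. The receptor Ptch1, itself a target of the pathway, gave 10.16, 10.27 and 10.26 at P7, against 10.84, 10.78 and 10.83 at P0, a fall of 0.59 (SE 0.08, adjusted p 5.16e-06) beside that of Gli1, and it rose by 0.29 up to P15.

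Gli3, whose product acts mainly as a repressor, was lower at P7 than at P0 (−0.50), when Gli2 rose, and lower at P15 than at P7 (−1.39; SE 0.10 each, limma adjusted p 1.97e-04 and 2.68e-08), when Gli2 fell by 1.41. Its arrays read 6.89, 6.99 and 7.19 at P15, against 8.49, 8.44 and 8.32 at P7, without overlap. Sufu, which restrains the Gli proteins, was higher at P7 than at P0 by 0.77 (SE 0.07, adjusted p 5.63e-08) and fell by 0.38 to P15. The signal transducer Smo was not called at P7 against P0 (0.05) or at P15 against P7 (−0.04). Hhip, which binds and sequesters the ligand, was lower at P7 than at P0 (−0.49, limma adjusted p 0.00391). It was higher at P21 than at P15 (0.51, adjusted p 0.0134) and lower at P56 than at P21 (−1.38, adjusted p 1.40e-07). Of 18 hedgehog genes measured of 20 listed, Gli1 and Gli2 left out, 3 were higher and 8 lower at P7 than at P0. That share of calls was close to the 62.1% over all probe sets. At P15 against P7, 2 were higher (Ptch1 and Gas1) and 3 lower (Gli3, Gpr161 and Sufu), a share close to the 24% over all probe sets. The median change at P15 against P7 was −0.01, beside 0.01 over all probe sets and −1.19 over the progenitor genes. At P56 against P0, 3 were higher and 9 lower, when 40.1% of all probe sets were higher and 35.3% lower (75.4% together). With medians set to 0, 7 were higher and 8 lower. The largest falls were those of Gli3 (−2.36) and of Disp1 (−2.27), which releases the ligand from cells.

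**Figure D3:**
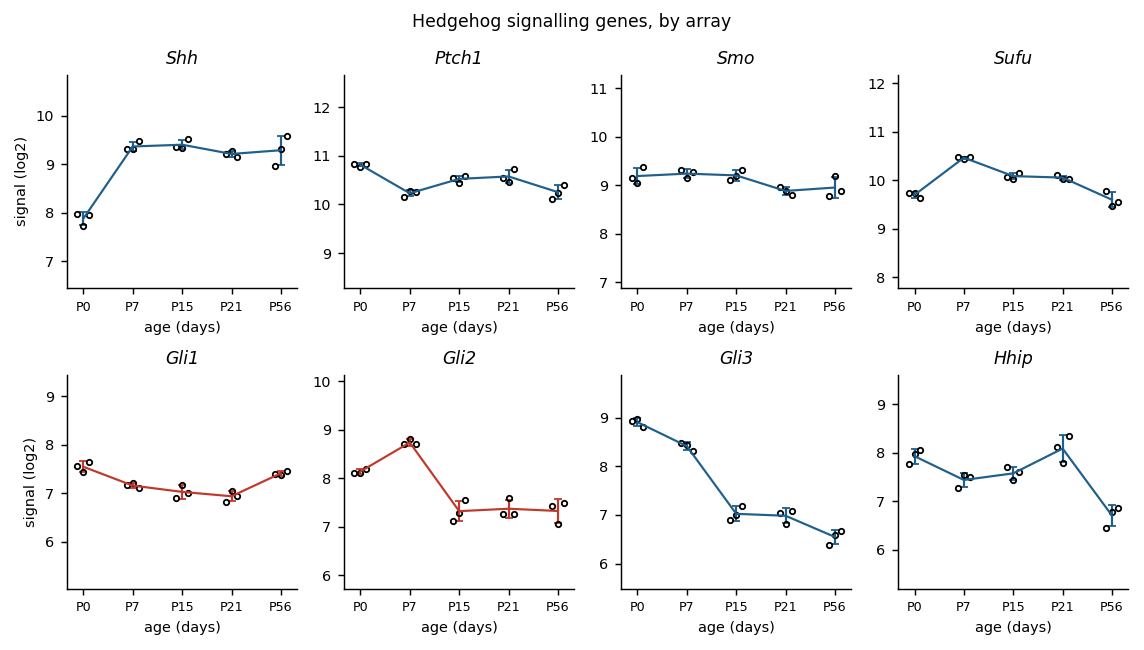
Signal (log2) of 8 hedgehog signalling genes at each age, with Gli1 and Gli2 in red. Circles are arrays, bars are 1 SD around the age mean, and each panel spans the same log2 range around its own middle. Shh steps up once, between P0 and P7, and Gli2 and Gli3 both drop between P7 and P15.

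Relatives and partners of the cyclin D, MYC and SFRP members are given next, with no test of a difference in timing. Ccnd3, the remaining D-type cyclin, gave 8.27, 8.21 and 8.02 at P56, its lowest age, against 9.40, 9.45 and 9.61 at P21, its highest, a fall of 1.32 (SE 0.08, limma adjusted p 4.79e-10). Cdk6, a kinase partner of these cyclins, was lower at P7 than at P0 (−0.82) and at P15 than at P7 (−0.94; SE 0.12 each, adjusted p 7.44e-06 and 2.17e-05), as did Ccnd1 in both steps. Cdk4, the other kinase partner, was not called from P0 to P7 (0.15) and fell by 0.60 from P7 to P15. With medians set to 0, all 13 genes of its list were called at P7 against P0, Cdk4 included (9 higher and 4 lower). Among the inhibitors of these kinases, Cdkn2c rose by 1.07 from P0 to P7 and fell by 0.84 up to P15 (SE 0.09 each, adjusted p 1.21e-08 and 5.68e-06), and Cdkn2d rose by 1.66 in the first week and by 1.27 from P21 to P56 (SE 0.08 each, adjusted p 1.07e-11 and 1.33e-09). Of 13 such partners and inhibitors measured of 14 listed, 8 were higher and 4 lower at P7 than at P0. Over all probe sets, 33.6% were higher and 28.5% lower in that step. At P15 against P7, 2 were higher and 6 lower (median −0.33), when 10.4% of all probe sets were higher and 13.6% lower.

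Myc gave 9.97, 10.21 and 10.01 at P0, 8.20, 8.07 and 8.06 at P7, 7.54, 7.30 and 7.29 at P15, 7.40, 7.52 and 7.85 at P21 and 6.71, 6.79 and 7.02 at P56. Its P0 arrays stood above all others, and it fell by 1.96 by P7 (SE 0.11, limma adjusted p 5.65e-11), the step in which Mycn rose by 0.85. Mycl, the remaining MYC gene, was not called in any of the 4 steps, and of 9 genes of the MYC network without Mycn, 1 was higher (Max, the shared partner) and 1 lower (Myc) at P15 than at P7, close to the share of 24% called over all probe sets. Sfrp2 gave 7.50, 7.52 and 7.46 at P7, against 10.21, 10.10 and 10.14 at P0, a fall of 2.66 (SE 0.10, adjusted p 3.29e-13) in the step in which Sfrp1 changed by −0.10 (95% interval −0.40 to 0.20). Of 9 secreted Wnt inhibitors without Sfrp1, 1 was higher and 6 lower at P7 than at P0. Over all probe sets, 33.6% were higher and 28.5% lower in that step. At P15 against P7, 2 were higher and 1 lower, when 24% of all probe sets were called. That 1 was Sfrp2, whose call ended with either scaling. All 11 meningeal fibroblast markers and all 12 endothelial and mural markers measured fell as well from P0 to P7 (medians −1.44 and −2.02). In that step, 10 of 12 interneuron markers (median −1.43) and 10 of 11 microglia markers (median −1.27) were also lower, with 1 higher in each. Of 15 markers of astrocytes and Bergmann glia, 10 were lower and 4 higher (median −0.57). Oligodendrocyte lineage markers mostly went the other way, with 8 of 13 higher and 5 lower (median 1.27). The part of these lists in the falls of Myc, Sfrp2, Ccnd1, Barhl1, Mfap4 and Gli1 was not tested.

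**Figure D4:**
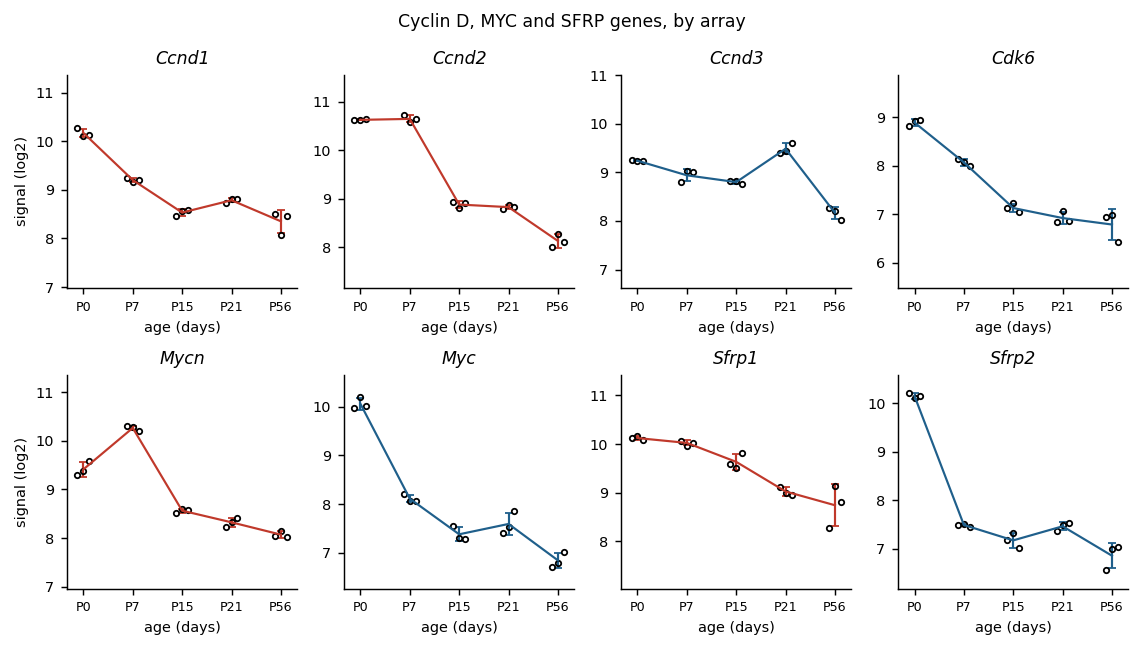
Signal (log2) of Ccnd1, Ccnd2, Mycn and Sfrp1 (red) and of relatives or partners (blue) at each age. Circles are arrays and bars are 1 SD around the age mean, in panels of equal log2 range. Myc and Sfrp2 drop between P0 and P7, when Mycn rises and Sfrp1 moves by −0.10.

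Other transcription factors of the granule cell lineage, 15 measured of 17 listed, were lower more often than higher in both steps between P7 and P21. At P15 against P7, 2 were higher, 6 lower and 7 not called (median −0.10), when 10.4% of all probe sets were higher and 13.6% lower. With medians set to 0, 4 were lower, and with quantile normalization 5, with 2 higher in each. At P21 against P15, 0 were higher and 9 lower (median −0.46), when 10.5% of all probe sets were higher and 7.16% lower. Insm1, a zinc finger factor of cells leaving division, was higher at P7 than at P0 (0.79) and lower at P15 than at P7 (−1.11; SE 0.16 each, limma adjusted p 2.97e-04 and 7.79e-05). Neurod1, a bHLH factor of differentiating granule cells, rose in the same steps (1.05, SE 0.08, and 0.29, SE 0.08, adjusted p 2.36e-09 and 0.0135). Sox11 (−4.13), Zic5 (−1.99), Meis1 (−1.82) and Insm1 (−1.71) had the largest changes of this list from P0 to P56.

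Genes of cell division also fell mainly after P7. Of 28 measured of 30 listed, 7 were higher and 8 lower at P7 than at P0, and 1 was higher and 25 lower at P15 than at P7, with medians of −0.04 and −1.17, beside −0.04 and −1.19 over the 10 progenitor genes. Over all probe sets, 33.6% were higher and 28.5% lower at P7 than at P0, and 10.4% and 13.6% at P15 than at P7. At P15 against P7, the cyclin Ccna2 changed by −2.21 (SE 0.14), the mitotic kinase Plk1 by −2.02 (SE 0.14), the division marker Mki67 by −1.97 (SE 0.09) and the mitotic kinase Cdk1 by −1.43 (SE 0.08), all called lower by limma. Mature granule cell genes mostly rose in that step. Of 16, 9 were higher and 4 lower at P7 than at P0 and 11 were higher and 1 lower at P15 than at P7 (median 0.45). Gabra6 and Cbln3, which are switched on as granule cells mature, stood at 10.73 and 10.64 at P7, against 5.08 and 6.26 at P0, the Gabra6 level at P0 being below the lower quartile. The 4 genes of this list called lower at P7 than at P0 were Kcnk9 (−2.06), Chd5 (−1.67), Kcnd2 (−0.97) and Calb2 (−0.77). Over that step from P7 to P15, markers of Purkinje cells (2 higher, 2 lower and 13 not called of 17), endothelial and mural cells (0, 1 and 11 of 12), microglia (0, 1 and 10 of 11), meningeal fibroblasts (1, 2 and 8 of 11) and interneurons (4, 1 and 7 of 12) mostly were not called. In the same step, 8 of 13 oligodendrocyte lineage markers were higher and 1 lower (median 0.31), and 7 of 15 markers of astrocytes and Bergmann glia were higher and 3 lower (median 0.15).

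Mean log2 signals of the endothelial and mural list were 7.16 to 7.20 at P7 and 9.20 to 9.23 at P0, those of the astrocyte and Bergmann glia list 10.37 to 10.41 at P15 and 10.26 to 10.30 at P7, and those of the proliferation list 7.38 to 7.39 at P15 and 8.42 to 8.56 at P7. Of the division genes, Mki67, Bub1, Bub1b and Nusap1 lay below the lower quartile in all arrays of P21, and Top2a, Bub1 and Nusap1 in those of P56. Of the proliferation genes, 25 of 28 fell in the same step as 8 of the progenitor genes, and their part in that fall was not tested.

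**Figure D5:**
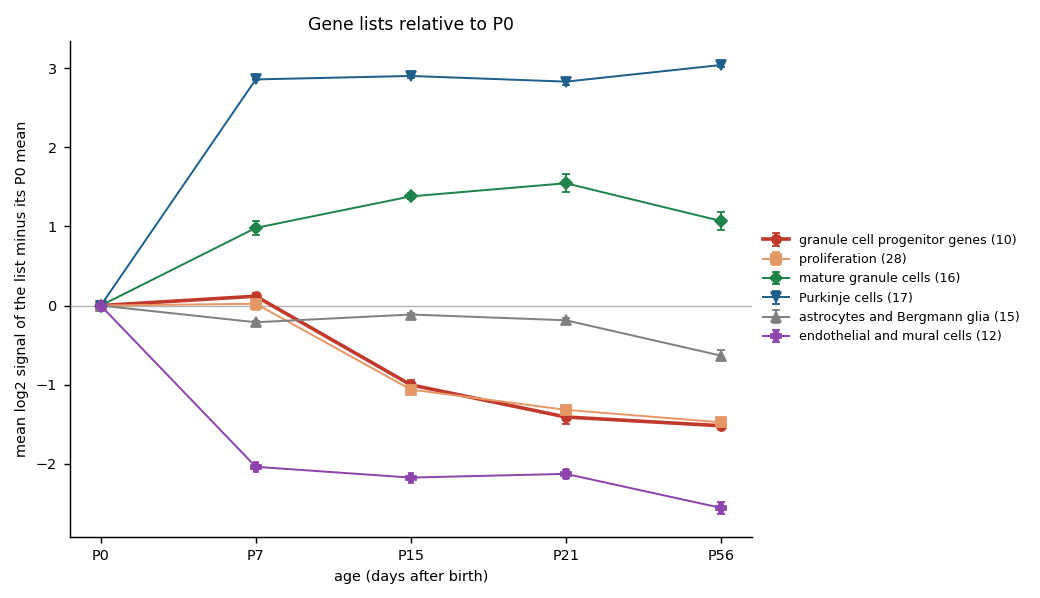
Mean log2 signal of 6 gene lists at each age minus the mean of that list at P0, with bars of 1 SD over 3 arrays. The progenitor and proliferation lines stay near 0 at P7 and lie near −1 at P15, the mature granule cell line climbs up to P21, and the Purkinje cell and endothelial lines make their largest step before P7.

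The genes most like the mean of the 10 in pattern, by Pearson's r over the 15 arrays among 6622 genes that differed between ages and spanned at least 1 log2 unit, with predicted and unnamed transcripts passed over, were Kif2c (0.993), Top2a (0.991), Islr2 (0.988), Aurkb (0.988), Ckap2l (0.987) and Ect2 (0.987). Kif2c, Top2a, Aurkb, Ckap2l and Ect2 encode proteins of chromosome separation and cell division, and Islr2 encodes a membrane protein of growing axons. Those most like Atoh1 were Kif2c (0.987), Ticrr (0.979), Tgif1 (0.972) and Aurkb (0.971). Kif2c averaged 7.01 at P0, 7.22 at P7, 6.08 at P15, 5.66 at P21 and 5.67 at P56. Its means at P21 and P56, and that of Ticrr at P21 (5.71), lay under the range of the arrays' lower quartiles (5.86 to 6.01). Those levels are not shown to be above background. Islr2 fell further, with means of 11.33 at P0, 10.87 at P7, 7.99 at P15, 7.0 at P21 and 6.81 at P56. These values of r are descriptions over arrays that share their ages.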

How the data were processed

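The authors deposited normalized log2 signals for each probe set. Per the submitters' processing notes, Affymetrix Power Tools was used, with no version stated. The algorithm is not given in the sources used here, and base 2 was inferred from the range of values (3.15 to 14.1). No value was changed, no column lay outside the 15 arrays, and no depth applies: the number of arrays limits the precision. The platform annotation gave 1 symbol to 20996 of 22092 probe sets, several to 91 and none to 1005. A gene was represented by its probe set of highest mean over all arrays.

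One limma model (version 3.58.1, R 4.3.3) was fitted to all 15 arrays with a mean per age (10 residual and 6.5 prior degrees of freedom), two-sided, with Benjamini-Hochberg adjustment over all probe sets within a contrast and calls under 0.05. Errors are SE beside a change and SD beside a mean. The fit was tested on simulated data. The 10 genes and the gene lists were chosen with earlier results of these data known, so no list was tested as a set. Named were the 10 genes, up to 4 called genes per list with the largest change from P0 to P56, relatives whose role stands beside a member, and the 6 and 4 genes of closest pattern. Neurod1, Gas1, Gpr161, Max, Chd5, Kcnd2, Calb2 and the markers listed as dim were named after their values were seen. Promoters came from RefSeq. Plots used Python 3.11.15 with matplotlib 3.10.9. Results were recomputed after leaving out each array, with only the compared ages, with array weights, with quantile normalization, with a trended and robust prior, with a replicate block, after setting array medians to 0, without the dimmest 50% of probe sets and with a gene's probe sets averaged.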

Additional observations from a re-analysis of the deposited data

How the results depend on the processing

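The direction of the drop between P7 and P15 was negative for all 10 genes under every alternative run, and the count of genes called lower in it was 8 to 9 of 10, or 6 of the 6 left when the dimmest 50% of probe sets were removed. That removal took out Atoh1, Nhlh1, Gli1 and Gli2, so by construction fewer genes could be called: 4 of 6 at P7 against P0 (7 of 10 as reported), 6 at P56 against P7 (10), 6 for any age (10) and 4 for the step difference (7). Reversed signs were limited to small changes. For P56 against P0, Gli1 (−0.14) was at 0.19 with quantile normalization and at 0.19 with medians set to 0. For P7 against P0, Ccnd2 (0.02) was at −0.15 with quantile normalization and −0.020 to 0.048 as arrays were left out, negative without P7 replicate 1. For P21 against P15, Gli2 (0.05) was at −0.060 to 0.16 as arrays were left out, negative without P15 replicate 1 or P21 replicate 2. For P56 against P21, Atoh1 (0.12) was at −0.042 to 0.34 as arrays were left out, negative without P56 replicate 1, Mycn (−0.25) was at 0.040 and Sfrp1 (−0.29) at 0.0049 with quantile normalization, and Gli2 (−0.05) at 0.11 with quantile normalization, 0.19 with medians set to 0, and −0.14 to 0.090 as arrays were left out, positive without P21 replicate 2 or P56 replicate 2. The cause was not tested. Among the values of single genes under an alternative, 1487 kept sign and side of the threshold, 44 lost the call, 28 gained it and 13 changed sign. The 1487 include 70 values with probe sets averaged, whose size was fixed because each of the 10 genes has 1 probe set. As arrays were left out, the counts of called genes ran from 9 to 9 (P56 against P0), 6 to 8 (P7 against P0), 8 to 9 (P15 against P7), 4 to 7 (P21 against P15), 5 to 7 (P56 against P21), 9 to 10 (P56 against P7) and 6 to 8 (step difference). The replicate numbers are not known to pair arrays: over 30 pairs of the same number at different ages, deviations correlated at −0.31 to 0.45 (median −0.0030), 5 of them above 0.1. Over 60 pairs of different number they correlated at −0.42 to 0.24 (median 0.0021), 10 of them above 0.1. Of 15 arrays, 6 correlated best with their own number. With the replicate block, the count for the step difference was 6 (Barhl1 at −0.34 lost its call) and no other call of the 10 genes changed. Signals near the lower quartile limit the size of the late falls of Atoh1 and Nhlh1.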
